A study of Caenorhabditis elegans with 12 samples.

Results

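The hedgehog-related and cuticlin genes of Caenorhabditis elegans were followed across 4 genotypes of early embryos. Members were the rows of the deposited gene table whose symbol in the WBcel235 annotation begins with wrt-, grd-, grl-, hog-, qua-, cut- or cutl-. The rule goes by name and uses no measured value, but it was set with earlier results of these data known. There were 94 members among 27904 rows. Of these, 59 were hedgehog-related (10 wrt, 16 grd, 31 grl, hog-1 and qua-1) and 35 were cuticlins (6 cut and 29 cutl). Ribosomal RNA was removed from total RNA before sequencing, and the embryos had about 1 to 300 cells, before the bean stage, and were collected 60 to 65 h after synchronization of larvae at 20 °C. The wild-type strain N2 (Bristol) stood beside a met-2 mutant with allele n4256, a set-25 mutant with allele n5021, and a double mutant carrying both alleles. Each genotype has 3 libraries, named here by the letters a, b and c of the table's columns. MET-2 and SET-25 are enzymes that methylate histone H3 on lysine 9, a mark of silent chromatin. The labels speak of 2 independent biological replicates where 3 libraries are listed, so p-values measure the spread between these libraries, part of which may be technical.

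C. elegans has no clear orthologue of the Hedgehog ligand and lacks Smoothened, but it carries large families of secreted proteins that share parts of the Hedgehog precursor. Warthog (wrt), groundhog (grd), hog-1 and quahog (qua-1) proteins pair a family-specific amino-terminal domain with, in many members, the autoprocessing Hog domain, whereas groundhog-like (grl) proteins have only the ground-like domain. Many are made in epidermal cells and in cells that shape apical extracellular matrix. Most cuticlins carry a zona pellucida domain, and cuticlins are built into the cuticle or into the transient matrices that precede it. The cuticle itself is first laid down late in embryogenesis.

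Library totals were 41033729 to 52683919 counts in N2, 23543963 to 25667207 in met-2, 16929810 to 23924919 in set-25, and for the double mutant 42943190 to 46833848. TMM scaling factors split the groups in the same way, at 0.893 to 0.923 in N2 and the double mutant and 1.06 to 1.16 in met-2 and set-25. In comparisons that cross this split, and in the interaction, genotype cannot be told apart from whatever goes with it. RNA of set-25 fell in set-25 libraries (38.3 ± 1.52 CPM, with library sizes scaled by TMM, against 195 ± 20.3 in N2, SD, n = 3) and in the double mutant (60.2 ± 2.42), and it was lower in the libraries labelled met-2 too (log2 -0.95, adjusted p = 0.0001 in edgeR). RNA of met-2 fell in the double mutant, to 52.4 ± 1.65 CPM from 322 ± 7.91 in N2. Where the label is met-2 its level was 267 ± 49.6 CPM, and the log2 change was -0.27 ± 0.16 (SE) with an adjusted p of 0.0756 in edgeR's quasi-likelihood test, so the RNA does not show the drop that the same allele shows in the double mutant. Those 3 libraries are therefore called the libraries labelled met-2, or met-2 libraries for short, and each direction drawn from them rests on that label. No pair of libraries within a group agreed within sampling noise.

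In N2 embryos most members were scarce. Of the 94 members, 9 averaged over 10 CPM in N2, 21 averaged 1 to 10 CPM, and 46 averaged under 1 CPM yet passed the filter on low counts. The other 18 did not pass it and were not tested. They were cutl-1, cutl-7, grd-3, grd-4, grd-8, grd-9 and 12 grl genes (grl-3, grl-8, grl-9, grl-13, grl-19, grl-22, grl-23 and grl-27 to grl-31). None of these 18 exceeded 1.29 CPM in any library, and grl-28 had no count in any of the 12.

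Compared per kilobase of annotated exon, wrt-10 was by far the most abundant member in N2, at 201 CPM per kb. It was followed by cutl-16 at 45.8, cutl-2 at 34.6, cutl-9 at 22.2, cutl-25 at 18.1 and cutl-20 at 16.7 CPM per kb. In CPM, wrt-10 alone made up 40.04, 39.0 and 40.7% of the summed level of all members in N2 libraries a, b and c. The order was different in the libraries labelled met-2. There cut-2 came second, at 124 CPM per kb against 0.280 in N2, and cut-3 next, at 98.1 CPM per kb against 0.157 in N2.

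**Figure D1:**
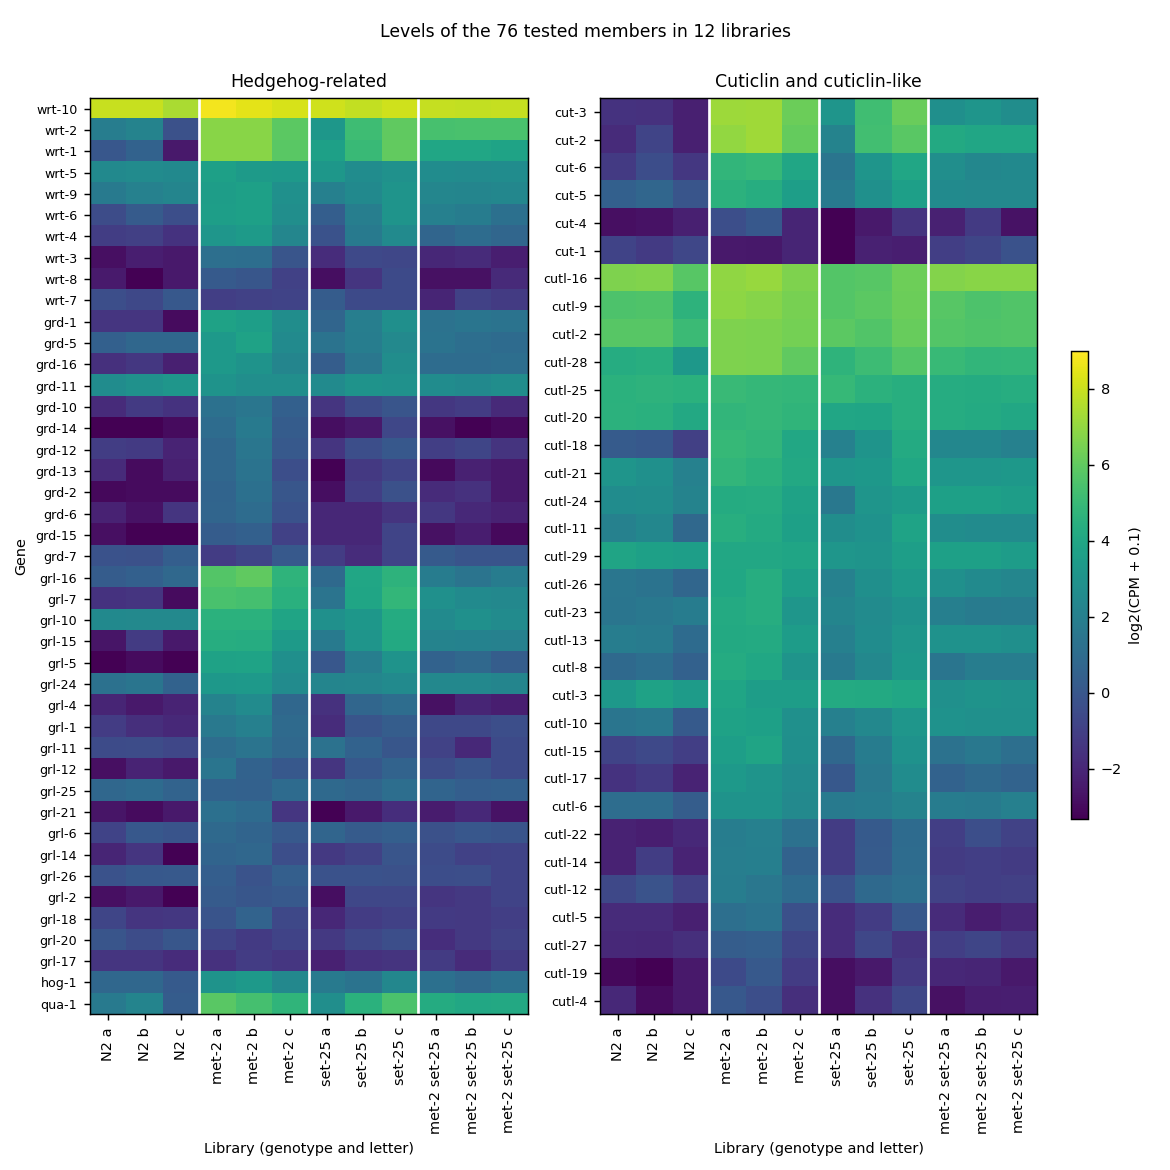
Level of each of the 76 tested members, as log2(CPM + 0.1) by colour, in the 12 libraries (columns, grouped by genotype), with hedgehog-related genes on the left and cuticlins on the right, each family sorted by its mean in the libraries labelled met-2. Most rows are darkest in N2 and brightest in the libraries labelled met-2, where library c is darker than a and b, and set-25 library a is darker than b and c.

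The summed level of the members was lowest in N2 and highest in the libraries labelled met-2. It was 630, 648 and 428 CPM in N2, 2111, 2048 and 1338 CPM in met-2, 703, 872 and 1270 CPM in set-25, and 801, 779 and 776 CPM in the double mutant. The 3 mutant groups each lay above N2 without overlap. Met-2 lay above set-25, whose libraries spread widely, the highest just under the lowest met-2 library. The double mutant's libraries lay inside the range of set-25 and were very close to each other. The order of the groups was the same in both classes: the hedgehog-related genes averaged 274 CPM in N2, 860 in met-2, 480 in set-25 and 383 in the double mutant, and the cuticlins 295, 973, 468 and 403 CPM.

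Each mutant was compared with N2 to ask how losing the methyltransferases, alone or together, changes embryonic RNA. Of the 76 tested members, 64 rose and 2 fell in the libraries labelled met-2, against 35.2% of all tested genes that rose and 29.6% that fell. In set-25, 46 members rose and 2 fell, where 24.2% of all genes rose and 21.6% fell. In the double mutant 25 members rose and 1 fell, where 8.7% of all genes rose and 3.34% fell. The median log2 change of the tested members was 2.93 in met-2, 1.36 in set-25 and 0.82 in the double mutant, whereas the medians of all 14260 tested genes were 0.05, 0.07 and -0.01. A member could pass the filter through a mutant group alone, in which case it had to differ, so these counts describe the members that were measurable and are not offered as evidence on the family as a whole. The 3 comparisons share the N2 libraries.

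The count for the double mutant depended on single libraries. It fell from 25 to 10 without N2 library c, to 11 without N2 library a, and to 16 and 14 without double-mutant libraries a and b. Neither of the other 2 counts moved by over 1.5 times when any library was left out. Of the 9 members over 10 CPM in N2, 5 rose in met-2 and 3 in set-25, against 13.4 and 9.43% of all tested genes at that N2 level. In the double mutant edgeR called 0 of these 9 higher, with 1 at an unadjusted p under 0.05, and DESeq2 called 1. Of the 21 members at 1 to 10 CPM in N2, 19 rose in met-2, 16 in set-25 and 8 in the double mutant, against 47.6, 32.8 and 13.8% of all tested genes at that level. Most tested members, 46, were under 1 CPM in N2, and 40, 27 and 17 of them rose. At that level 65.7, 44.6 and 16.9% of all tested genes rose, and a gene there can pass the filter through a mutant group alone.

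**Figure D2:**
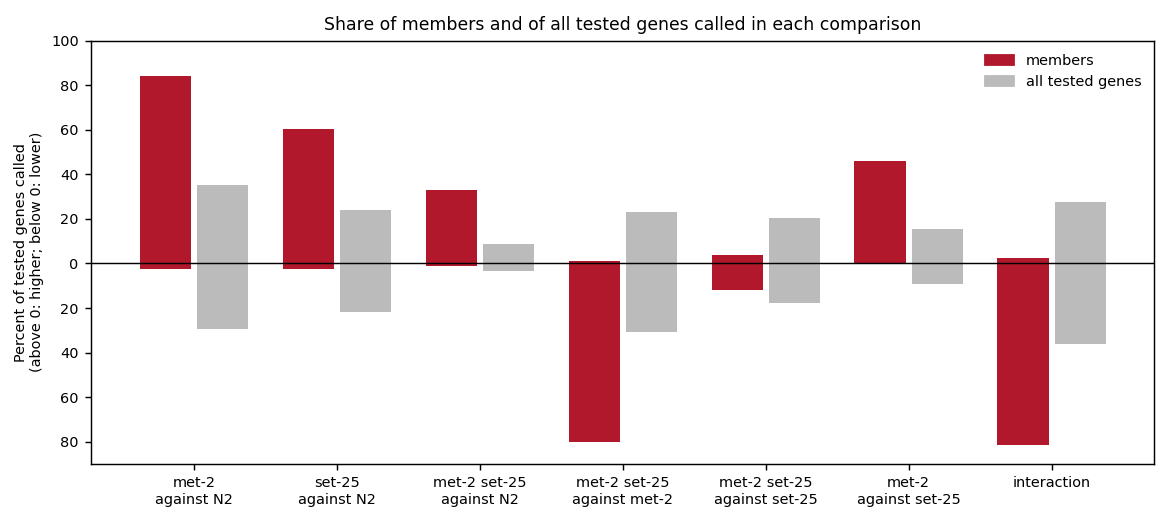
Percent of the 76 tested members (red bars) and of all 14260 tested genes (grey bars) called higher (above 0) or lower (below 0) at adjusted p under 0.05 in each of the 7 comparisons. In the comparisons with N2 the members are mostly called higher, and in the double mutant against met-2 and in the interaction they are mostly called lower.

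Among the warthog genes 9 of 10 rose in met-2, 5 in set-25 and 4 in the double mutant. Over all tested genes 35.2% rose in met-2, 24.2% in set-25 and 8.7% in the double mutant. These shares stand beside the count of each family below. The gene wrt-1 (chromosome II, 7530996 to 7533246, plus strand) measured 0.913, 1.37 and 0.0819 CPM in N2 libraries a, b and c, 111, 112 and 56.7 CPM in met-2, 12.6, 32.9 and 65.8 CPM in set-25, and 15.8, 15.4 and 14.2 CPM in the double mutant. All 9 mutant libraries lay above the 3 N2 libraries. Its log2 changes were 6.87 ± 1.08 in met-2, 5.53 ± 1.24 in set-25 and 4.24 ± 1.03 in the double mutant (SE), with adjusted p of 2.03e-05, 9.32e-05 and 0.00415 in edgeR. Separation from N2, given here and for other members, was common. Of all 14260 tested genes, 38.7% lay wholly above N2 in met-2, 25.6% in set-25 and 29.2% in the double mutant.

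The gene wrt-2 (chromosome X, 3092395 to 3094349, minus strand) gave 3.61, 4.42 and 0.737 CPM in N2, 112, 113 and 59.3 CPM in met-2, 9.20, 36.1 and 63.9 CPM in set-25, and 42.8, 44.5 and 43.8 CPM in the double mutant. No mutant library overlapped with N2, and here the double mutant averaged above set-25, unlike for wrt-1. The log2 changes were 5.01 ± 0.84, 3.62 ± 1.14 and 3.89 ± 0.79. Scarcer members rose in all 3 mutants too: wrt-4 had log2 changes of 4.55, 3.24 and 2.29, and wrt-6 of 3.74, 2.48 and 2.06, though in the double mutant the calls of both were lost when any one of the 6 N2 or double-mutant libraries was left out. The gene wrt-3 rose in met-2 (4.46 ± 0.47) and set-25 (2.44 ± 0.46).

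The abundant wrt-10 changed far less. It measured 252, 253 and 174 CPM in N2, 444, 362 and 306 CPM in met-2, 279, 232 and 276 CPM in set-25, and 241, 236 and 239 CPM in the double mutant. It rose by 0.71 ± 0.24 (log2) in met-2, with an adjusted p of 0.00199 in edgeR, and its changes of 0.21 ± 0.20 in set-25 and 0.07 ± 0.18 in the double mutant missed the threshold. It lies on the minus strand at 7533262 to 7534563 of chromosome II, 15 bases from the end of wrt-1, so these neighbours with facing ends differed by several log2 units in their change. Of the remaining warthogs, wrt-5, wrt-8 and wrt-9 rose in met-2, and wrt-7 was called in no comparison with N2 (log2 -0.75, 0.08 and -1.26).

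**Figure D3:**
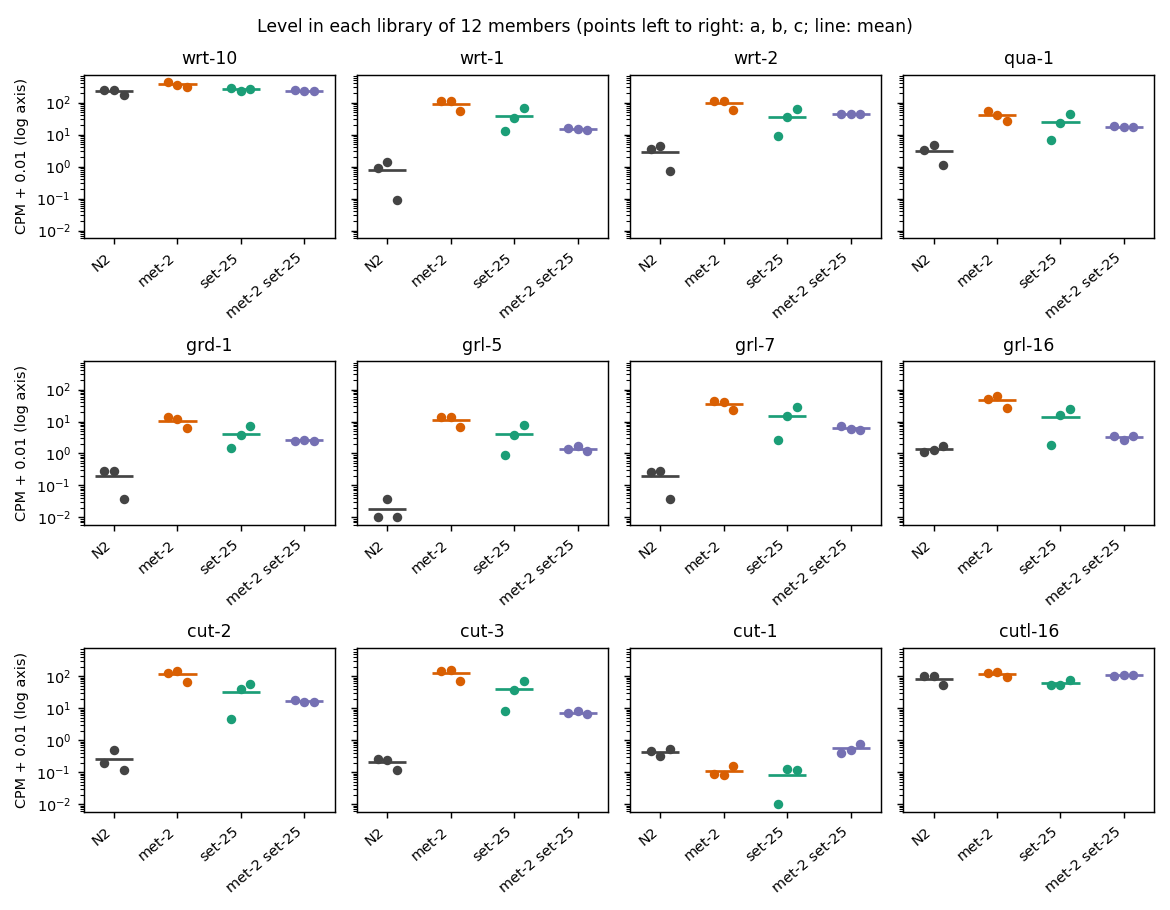
CPM + 0.01 on a log axis for 12 members, with 1 point per library (left to right a, b and c) and a line at the group mean, so that a library at 0 CPM stands at 0.01. In wrt-1, wrt-2, qua-1, grd-1, grl-5, grl-7, grl-16, cut-2 and cut-3 every mutant library lies above every N2 library, in grl-16 by little in set-25 library a. The genes wrt-10 and cutl-16 stay within 1 decade in all libraries, and cut-1 is lower in met-2 and set-25. Of all 14260 tested genes, 38.7, 25.6 and 29.2% lie wholly above N2 in met-2, set-25 and the double mutant, each taken alone.

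The quahog gene qua-1, which encodes a Hog-domain protein needed for moulting, measured 3.26, 4.61 and 1.09 CPM in N2, 56.8, 41.6 and 26.6 CPM in met-2, 6.79, 23.6 and 45.0 CPM in set-25, and 19.1, 16.7 and 17.5 CPM in the double mutant. It was above N2 in each of the 9 mutant libraries. Its log2 changes were 3.80 ± 0.69, 3.06 ± 1.00 and 2.57 ± 0.61. The call in the double mutant (adjusted p = 0.0212, edgeR) was lost without N2 library a or c, and without any one of the double-mutant libraries. The gene hog-1 rose in met-2 (2.44 ± 0.35) and set-25 (1.33 ± 0.37) and missed the threshold in the double mutant (0.50 ± 0.26).

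Of 12 tested groundhog genes 10 rose in met-2, 6 in set-25 and 2 in the double mutant, where 8.7% of all tested genes rose. The gene grd-1 was near the limit of detection in N2, at 0.270, 0.268 and 0.0273 CPM. It reached 13.4, 11.8 and 6.38 CPM in met-2, 1.5, 3.81 and 7.04 CPM in set-25, and 2.41, 2.69 and 2.52 CPM in the double mutant. Again no mutant library overlapped with N2, and its log2 changes were 5.74 ± 0.72, 4.38 ± 0.90 and 3.69 ± 0.64. The gene grd-16 rose by 5.10, 4.0 and 3.22, and grd-5 rose in met-2 (2.67 ± 0.37) and set-25 (1.34 ± 0.33).

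For 3 groundhog genes N2 held 3 counts or fewer in all, and only the ratio of CPM is given, with an exact 95% interval that covers counting error alone. The gene grd-14 had 1 count in N2 and 170 in met-2, a ratio of 255 (45.1 to 10126). With 13 counts in set-25 its ratio was 22.7 (3.42 to 967). The gene grd-2 had 3 counts in N2 and 124 in met-2, a ratio of 62.0 (20.7 to 305), and grd-15 had 2 and 75, a ratio of 56.2 (15.03 to 473). In the double mutant grd-14 held 3 counts, grd-15 held 7 and grd-2 held 21, and none of them was called. The most abundant groundhog gene in N2 by CPM, grd-11, was called in no comparison, with group means of 7.54 ± 1.34, 7.13 ± 0.717, 7.02 ± 0.98 and 6.19 ± 0.461 CPM in N2, met-2, set-25 and the double mutant (SD, n = 3). It was chosen after its values were seen.

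Among the groundhog-like genes, 19 of 31 could be tested. In met-2 15 rose and 1 fell, in set-25 12 rose, and in the double mutant 6 rose and 1 fell. The gene grl-5 was almost silent in N2, with 0, 1 and 0 counts, and had 350, 392 and 192 counts in met-2, 23, 96 and 150 in set-25, and 59, 71 and 45 in the double mutant. The ratio of CPM to N2 was 1400 for met-2, with an exact 95% counting interval of 251 to 55372. The set-25 ratio was 471 (83.8 to 18658) and that of the double mutant 172 (30.5 to 6842).

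The gene grl-7 measured 0.249, 0.268 and 0.0273 CPM in N2, 44.0, 41.6 and 22.7 CPM in met-2, 2.57, 15.2 and 28.3 CPM in set-25, and 7.17, 5.88 and 5.33 CPM in the double mutant. Its groups did not overlap with N2, and its log2 changes were 7.57 ± 0.69, 6.33 ± 1.2 and 5.01 ± 0.63. The gene grl-15 rose by 6.70 ± 0.63, 5.92 ± 0.90 and 4.74 ± 0.55. Different in the double mutant was grl-16, at 1.10, 1.26 and 1.72 CPM in N2, 51.3, 63.2 and 25.7 CPM in met-2, 1.78, 15.8 and 24.5 CPM in set-25, and 3.47, 2.55 and 3.55 CPM in the double mutant. It rose in met-2 (5.11 ± 0.43) and set-25 (3.37 ± 1.17), where library a stood just above N2, and its change of 1.23 ± 0.24 in the double mutant missed the threshold at an adjusted p of 0.21 in edgeR. The gene grl-4 went further in this way, with group means of 0.121 CPM in N2, 4.02 in met-2, 1.27 in set-25 and 0.0973 in the double mutant.

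The cut genes encode the founding cuticlins. CUT-3 and CUT-5 are needed for the ridges, called alae, of the first larva, and CUT-1 and CUT-6 act in the dauer larva. Of the 6, 5 rose in met-2, 4 in set-25 and 4 in the double mutant. The gene cut-3 (chromosome II, 8445169 to 8446831, minus strand) gave 0.249, 0.241 and 0.109 CPM in N2, 147, 153 and 74.1 CPM in met-2, 8.57, 37.2 and 73.3 CPM in set-25, and 6.99, 8.49 and 6.57 CPM in the double mutant. Every mutant library exceeded N2, and set-25 libraries ran from the level of the double mutant to that of the lowest met-2 library. The log2 changes were 9.23 ± 0.44, 7.58 ± 0.95 and 5.15 ± 0.30, with adjusted p of 6.69e-06, 2.37e-05 and 0.00319 in edgeR. In CPM the group means were 625-, 199- and 36.8-fold those of N2.

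The gene cut-2 (chromosome V, 13414949 to 13416064, plus strand) measured 0.187, 0.482 and 0.109 CPM in N2, 128, 149 and 67.0 CPM in met-2, 4.50, 38.9 and 57.1 CPM in set-25, and 18.1, 15.7 and 15.4 CPM in the double mutant. The groups were again apart from N2, and the double mutant lay between set-25 libraries a and b. The log2 changes were 8.79 ± 0.61, 7.01 ± 1.24 and 5.99 ± 0.50. The gene cut-6 rose by 5.85 ± 0.43, 4.37 ± 0.79 and 3.77 ± 0.32, and cut-5 by 3.91 ± 0.40, 2.60 ± 0.60 and 2.18 ± 0.25, the last not called without N2 library a or c. The scarce cut-4 rose in met-2 alone of the 3 (3.09 ± 0.75), and whether its changes differ between the mutants was not settled, since its direct comparisons and its interaction all missed the threshold.

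Of 27 tested cuticlin-like genes 23 rose in met-2, 17 in set-25 and 8 in the double mutant. The largest changes of the family in met-2 were in 3 genes under 1 CPM in N2: cutl-17 had log2 changes of 5.06 ± 0.35, 3.82 ± 0.82 and 2.67 ± 0.30, cutl-18 of 4.93 ± 0.47, 3.65 ± 0.74 and 2.56 ± 0.40, and cutl-22 of 4.62 ± 0.26, 2.99 ± 0.66 and 1.90 ± 0.24. Such genes can pass the filter through a mutant group alone, so scarcity in N2 and a large rise are not independent. The scarce cutl-12 (2.26) and cutl-27 (2.37) rose less in met-2 than cutl-8 (3.08), at 1.72 CPM in N2. The call of cutl-22 in the double mutant was lost without any one of the N2 or double-mutant libraries, that of cutl-18 without N2 library c, and that of cutl-17 without N2 library a or c or double-mutant library b.

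The cuticlin-like genes over 10 CPM in N2 differed among themselves. The gene cutl-28 rose from 16.8 CPM in N2 to 85.6 CPM in met-2 (log2 2.35 ± 0.43) and also in set-25 (log2 1.16). The gene cutl-16 measured 99.3, 101.4 and 55.2 CPM in N2, 126, 139 and 98.8 CPM in met-2, 52.8, 54.7 and 77.2 CPM in set-25, and 104, 112 and 111 CPM in the double mutant. Its groups overlapped with N2 in met-2 and set-25 and it was called in no comparison with N2. The call of cutl-25 in met-2 (0.35 ± 0.07) was lost in most alternatives. In met-2 cutl-2 rose by 0.97 ± 0.24 and cutl-9 by 1.40 ± 0.34, from a mean of 40.2 to 107 CPM, while cutl-20 (0.38 ± 0.16) missed the threshold.

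**Figure D4:**
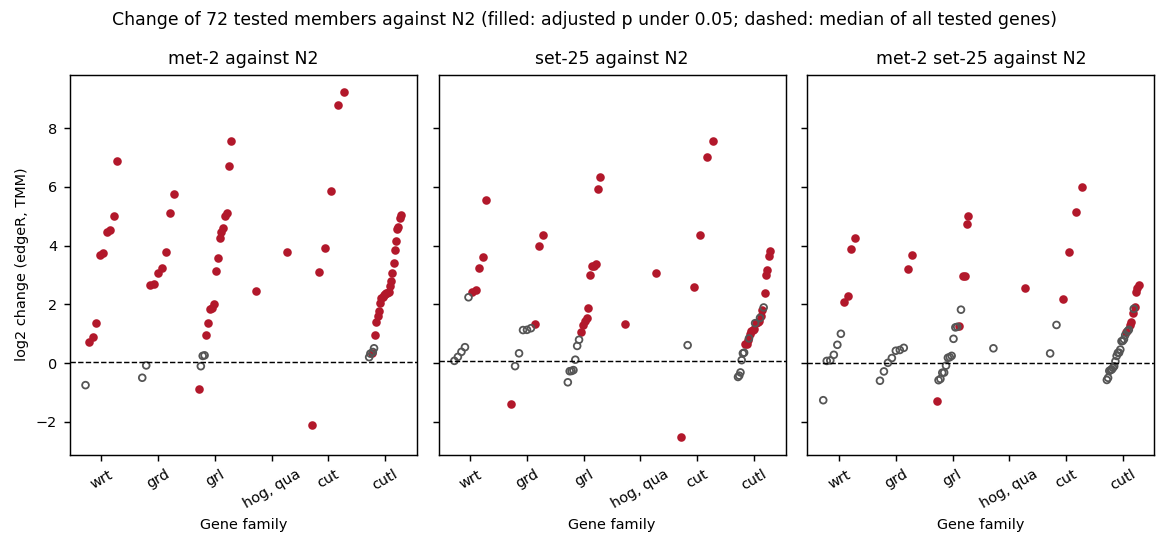
Log2 change against N2 of the 72 tested members with more than 3 counts in N2, by gene family, for each mutant, filled where the adjusted p is under 0.05 and open where it is not. The dashed line is the median of all tested genes (0.05, 0.07 and -0.01). Most points lie above the line, fewer are filled from met-2 to set-25 to the double mutant, and the lowest filled points in the first 2 panels are cut-1.

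Members that fell against N2 were few and scarce. The gene cut-1 stood at 0.457, 0.321 and 0.519 CPM in N2, 0.0784, 0.0717 and 0.143 CPM in met-2, 0, 0.118 and 0.105 CPM in set-25, and 0.393, 0.5 and 0.747 CPM in the double mutant. It was below N2 in each met-2 and set-25 library and overlapped with N2 in the double mutant. The log2 changes were -2.10 ± 0.27 in met-2, -2.53 ± 0.53 in set-25 and 0.33 ± 0.30 in the double mutant, the last not called. These rest on 53 counts in N2, 8 in met-2 and 5 in set-25, so the SEs, taken with a prior count of 2, can be too small. Of all tested genes 34.9% lay wholly below N2 in met-2 and 24.3% in set-25.

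The gene grd-7 fell by 1.38 ± 0.38 (log2) in set-25, from 0.747, 0.723 and 1.17 CPM in N2 to 0.355, 0.196 and 0.473 CPM. The groups did not overlap, but the call was lost without N2 library c or set-25 library b, with library totals as scaling and when libraries were thinned to equal depth. It lies on the strand opposite F46H5.2, whose own level was 122 CPM in N2 and 63.3 in set-25, and no source used here gives the strand setting of the counting, so reads of these 2 genes cannot be told apart. The gene grl-20 fell in met-2 (-0.90 ± 0.21, adjusted p = 0.048) and in the double mutant (-1.29 ± 0.30, adjusted p = 0.0397) in edgeR, and most alternatives lost both calls. The first was lost without any of the libraries compared except N2 library b, and the second without any of those compared.

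The double mutant was then set against each of the other mutants. Against met-2, 61 members were lower in the double mutant and 1, cut-1, was higher, where 30.8% of all genes were lower and 23.1% higher (54% called either way). The median of the members was -1.76, against -0.12 for all genes. For cut-3 the difference was -4.09 ± 0.36, for grl-16 -3.87 ± 0.42, for grl-4 -5.32 ± 0.62 and for wrt-1 -2.62 ± 0.33. Among the 14 members not called were wrt-2 (-1.12 ± 0.31) and qua-1 (-1.23 ± 0.32). The level of grd-14 went from 170 counts in met-2 to 3 in the double mutant.

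Against set-25 fewer members were called: 9 were lower in the double mutant and 3 higher, where 17.7% of all genes were lower and 20.5% higher (38.2% called either way). Whether the share of lower members lay under that of all genes depended on the setting: it was 11.8% of tested members here, 40.8% against 35.5% of all genes with library totals as scaling, and 22.4% against 17.7% with DESeq2. With library totals, 5066 of all genes were lower and 1818 higher, in place of 2531 and 2918. Lower were cut-3, cutl-3, cutl-12, grl-4, grl-5, grl-10, grl-11, grl-16 and wrt-7. For cut-3 the difference was -2.43 ± 0.92, and for grl-4 -3.64 ± 0.92. Higher were cut-1 (2.86 ± 0.56), grd-7 (1.39 ± 0.33) and cutl-16 (0.83 ± 0.18). The count of lower members rose to 34 without set-25 library a and to 19 without met-2 library c, and fell to 5 without double-mutant library a or c.

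Met-2 and set-25 differed from each other in 35 members, and each of the 35 was higher in met-2, where 15.5% of all genes were higher and 9.28% lower. At an unadjusted p under 0.05, 1 member was lower in edgeR, and DESeq2 called 1 lower. Cuticlins made up 21 of the 35, and the median of the members was 1.26, against 0.11 for all genes. The largest differences among those with at least 1 CPM in one group were in grl-21 (4.0 ± 1.07), grd-6 (2.89 ± 0.44) and grd-13 (2.65 ± 1.11), beside grd-14, which had 1 count in N2. This count rested on the libraries in the fit. It was 57 without set-25 library c, 21 without set-25 library a, 12 without set-25 library b, 7 without met-2 library a and 0 without met-2 library b, and 0 when the 6 libraries were fitted alone.

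The interaction asks whether the change in the double mutant equals the sum of the log2 changes in met-2 and set-25. In 62 members it was negative, so that the double mutant fell short of the sum, and in 2 it was positive, where 36.2% of all genes were negative and 27.7% positive. The median was -3.65, against -0.19 for all genes. This contrast sets N2 and the double mutant, with the higher library totals, against met-2 and set-25, with the lower ones. With libraries thinned to equal depth, 56 of 67 tested members were negative and 1 was positive. For cut-3 it was -11.66 ± 1.02 and for cut-2 -9.81 ± 1.29. The order of the group means was N2, double mutant, set-25 and met-2, from lowest to highest, in 48 of 76 members. The share of all tested genes with this full order was not computed. Met-2 was highest in 69 and N2 lowest in 56, where 39.4% of all tested genes were highest in met-2 and 32.8% lowest in N2. In the mean order set-25 and the double mutant, which lie next to each other, were called different in 12 members.

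Within groups the members moved together by library. In met-2, library c was the lowest of the 3 for 68 of 76 members, where it was lowest for 45.5% of all tested genes. In set-25, library a was lowest for 60 members and c highest for 64, where these libraries were lowest for 48.0% and highest for 42.9% of all genes. Between libraries c and a of set-25 the median log2 difference was 1.35 over the members and 0.16 over all genes. In N2, library c was lowest for 41 of 76 members, where it was lowest for 36.96% of all tested genes. It was also highest for 17 members, where it was highest for 35.94% of all genes. Between libraries c and a of N2 the median log2 difference was -0.34 over the members and -0.01 over all genes. In the double mutant the medians between libraries were within 0.11 of 0.

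Transcripts that mark stages and tissues of the embryo moved across the same libraries. Over all tested genes 35.2% rose and 29.6% fell in met-2, 24.2% and 21.6% in set-25, and 8.7% and 3.34% in the double mutant. These shares stand beside each list count from here on. Of 24 tested maternal and oocyte transcripts (26 listed) 22 fell in met-2, 20 in set-25 and 3 in the double mutant, and their summed level was 6382 to 8228 CPM in N2, 2541 to 3070 in met-2, 2375 to 3296 in set-25, and for the double mutant 5712 to 6477. Of 16 early zygotic transcripts 15 fell in met-2, 12 in set-25, while in the double mutant edgeR called 0 after adjustment and 9 were lower at an unadjusted p under 0.05, with sums of 2015 to 2247, 1181 to 1630, 1501 to 2062 and 1610 to 1697 CPM. Of 10 body wall muscle genes 10 rose in met-2, 4 in set-25 and 6 in the double mutant. The muscle sum was 387, 402 and 184 CPM in N2 libraries a, b and c, 2200, 2780 and 1216 CPM in met-2, 189, 793 and 1116 CPM in set-25, and 1144, 1119 and 1099 CPM in the double mutant. Library c was thus lowest in N2 and met-2, and library a lowest in set-25, for the muscle genes as for most members. In N2 that majority of members was small, at 41 of 76.

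No listed transcript of these 3 sets was at 0 in all libraries. The part that the age or cell makeup of the embryos has in the members' changes was not tested. In bulk RNA, fewer cells of a type and less RNA per cell cannot be told apart. Material from adults was scarce in each group: 4 adult-stage cuticle collagens summed to at most 1.08 CPM in any library, 6 vitellogenins to at most 2.43 CPM and 31 major sperm protein genes to at most 0.555 CPM, with 12 of the latter at 0 throughout. The hatching protease gene hch-1 was present in each group, at means of 149, 213, 93.3 and 186 CPM in N2, met-2, set-25 and the double mutant. Tissue genes of the pharynx (5 of 7 higher, 1 lower), intestine (6 of 8 higher, 2 lower) and neurons (6 of 9 higher, 2 lower) were also called in met-2. In set-25 the counts were 5 and 1, 4 and 2, and 6 and 2, and in the double mutant 2, 1 and 2 were higher. Summed levels did not always go with the counts. In N2, met-2, set-25 and the double mutant the pharynx sum averaged 295, 408, 241 and 369 CPM. The intestine sum averaged 106, 213, 126 and 153 CPM. That of the neurons was lower in met-2 and set-25 than in N2, at 496, 327, 283 and 503 CPM.

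**Figure D5:**
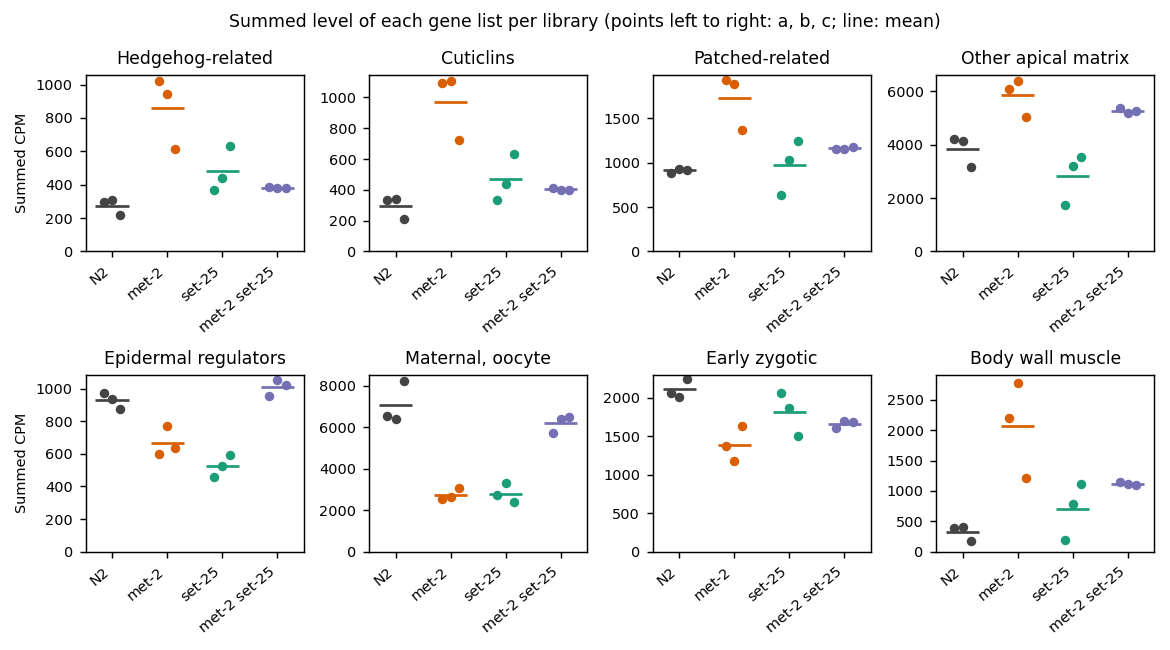
Summed CPM per library of 8 gene lists, with 1 point per library (left to right a, b and c) and a line at the group mean, on axes that start at 0 and differ in scale. The hedgehog-related genes, cuticlins, patched-related genes and body wall muscle genes are highest in the libraries labelled met-2, while maternal transcripts are highest in N2 and the double mutant.

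Epidermal and moulting regulators did not follow the members. Of 15 tested (17 found of 18 listed), 5 rose and 7 fell in met-2, 2 rose and 9 fell in set-25, and 2 rose in the double mutant. The gene lin-26, which encodes a zinc-finger protein that maintains epidermal fate, fell by 1.03 ± 0.16 (log2) in met-2 and by 1.16 ± 0.09 in set-25, with -0.00 ± 0.08 in the double mutant. The nuclear receptor genes nhr-23 (-0.57 and -1.18) and nhr-25 (-0.73 and -1.04) fell in both. The Grainyhead gene grh-1 rose in the 3 mutants, by 3.65 ± 0.58, 2.51 ± 0.91 and 2.26 ± 0.51.

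The patched and patched-related genes encode membrane proteins of the family to which the Hedgehog receptor belongs. Of 26 tested, 22 rose in met-2, 14 rose and 2 fell in set-25, and 9 rose in the double mutant, with medians of 2.05, 0.91 and 0.79. The gene ptr-16 measured 0.0208, 0.0268 and 0.0819 CPM in N2, 18.4, 19.3 and 10.05 CPM in met-2, 0.750, 4.83 and 9.36 CPM in set-25, and 0.972, 0.809 and 0.978 CPM in the double mutant. It rose in each mutant, and its libraries did not overlap with N2. The gene ptr-20 rose by 5.16 ± 0.47 in met-2 and 3.56 ± 0.82 in set-25, and ptr-4 by 3.06 ± 0.67, 1.74 ± 0.80 and 1.91 ± 0.61.

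The gene ptc-3, one of the closest relatives of Patched, rose in met-2 (2.09 ± 0.25) and not past the threshold in set-25 (0.87 ± 0.61) or the double mutant (0.76 ± 0.08). The abundant ptc-1 and ptr-2 fell in set-25, by 0.48 ± 0.21 and 0.47 ± 0.14. The count of 14 in set-25 fell to 7 without N2 library c and to 5 when the 6 libraries compared were fitted alone. The count of 9 in the double mutant ranged from 0 without N2 library a to 16 without set-25 library a or c, and it was 1 without N2 library c or double-mutant library a, 2 without double-mutant library b or c, and 3 without N2 library b.

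Of 7 genes related to Dispatched, to sterol-sensing proteins and to Gli, 5 rose in met-2, 2 in set-25 and 2 in the double mutant. The 2 were ptd-2 (4.15 ± 0.40, 2.68 ± 0.42 and 2.28 ± 0.23) and daf-6 (3.69 ± 0.45, 2.26 ± 0.69 and 1.56 ± 0.37), a patched-related gene that limits the lumen of glial channels. The Gli relative tra-1 fell in set-25 (-1.03 ± 0.38). Of 13 tested cuticle modifying enzymes 12 rose in met-2, 5 in set-25 and 1, the dual oxidase gene bli-3, in the double mutant. Of 14 other apical matrix genes 9 rose and 1 fell in met-2, 2 rose and 5 fell in set-25, and 1 rose in the double mutant. Thus noah-1, a gene for a zona pellucida protein of the embryonic sheath, rose in met-2 (0.79 ± 0.20), and its change of -0.37 ± 0.34 in set-25 missed the threshold. Over all tested genes 24.2% rose in set-25 and 8.7% in the double mutant. The 2 of 7 in set-25, and in the double mutant the 1 of 13 enzymes and 1 of 14 apical matrix genes, were near these shares.

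The members lie on all 6 chromosomes, 33 of them on chromosome V. Of the 20 tested there, 17 rose in met-2, 12 in set-25 and 7 in the double mutant. These counts were close to the shares of tested members on all chromosomes, 84.2, 60.5 and 32.9%. Over all tested genes of the table the shares were 35.2, 24.2 and 8.7%. Chromosome V held 26.3% of the tested members and 18.99% of all tested genes. Autosomal members lay in the outer parts of their chromosome, outside its middle stretch when cut into 3 equal lengths, in 54.8% of tested cases, where 59.4% of all tested autosomal genes did. In those outer parts 28 of 34 members rose in met-2, 17 in set-25 and 9 in the double mutant, where 30.1, 20.7 and 8.64% of all tested genes there rose. In the middle stretches the counts were 25, 19 and 11 of 28, where 35.5, 27.3 and 7.3% of genes rose. In 32 members the annotated span overlapped a protein-coding gene. Abundant partners were pccb-1, opposite wrt-2, at 509 CPM in N2, and evl-20, opposite cut-3, at 34.1 CPM in N2. Both partners averaged less in met-2, at 353 and 21.5 CPM, where wrt-2 and cut-3 were higher. Without the strand setting, reads in the shared stretches cannot be assigned to one gene. In 8 members that rose in met-2, an overlapping protein-coding gene rose there too. These were cutl-11, cutl-17, cutl-18, grd-12, grl-1, grl-14, grl-24 and hog-1, and their changes are uncertain. For hog-1 the opposite gene atat-2 went from 2.16 CPM in N2 to 8.03 in met-2, for cutl-18 T03F7.7 from 2.60 to 9.10 CPM, and for grl-1 hir-1 from 5.07 to 25.1 CPM. On the member's own strand, F11E6.9 went from 1.45 to 6.58 CPM beside grl-24, and xbx-1 from 0.182 to 1.95 CPM beside grd-12. Other members with an overlapping gene share the limit on strand.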

How the data were processed

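The deposited table holds raw counts per gene in whole numbers, which the authors made from ribosome-depleted total RNA, 5 µg per library, per the labels' protocols. The sources used here do not give the aligner, build, counter or strand setting. Sequence names were matched to the Ensembl 115 annotation of WBcel235 (27163 of 27904 rows), and positions are from it. The table's second column, a gene width in bases, was not used for tests, and the deposited table of repeats was not used. Columns were assigned to genotypes by name.

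All 12 libraries were fitted once with edgeR 4.0.16 (R 4.3.3): robust quasi-likelihood fit, TMM scaling, filter on low counts by genotype, two-sided tests, Benjamini-Hochberg adjusted p under 0.05 over all 14260 tested genes, no fold threshold. A called gene "rose" or "fell". SEs are from log2 CPM with a prior count of 2, whereas the log2 changes are edgeR's fitted values. The prior count damps the spread of scarce members, so their SEs can be too small for the changes beside them. The test uses its own estimate of the spread, so an SE does not give the call. Beside a count of 3 or fewer in N2, ratios with exact 95% Poisson intervals replace fitted changes. These cover counting error only. The procedure was tested on simulated data for met-2 against N2, with 14260 genes. Of 4-fold changes it recovered 78 of 102, short of the recovery first asked for, and the criterion was then set by stratum: 60 of 62 in genes over 1 CPM with dispersion under 0.1, and 18 of 40 in the rest. Of 2-fold changes it recovered 48 of 73 and 0 of 25. A scarce or variable member that was not called may therefore have changed. The simulation changed 98 genes 2-fold and 102 genes 4-fold, and 10 of its 136 calls were false. In the data 64.8% of genes were called in met-2 against N2, so recovery and false calls there may differ. Alternatives were DESeq2 1.42.0, other scalings, no filter, compared libraries only, libraries thinned to 16929810 counts, each library left out, and, chosen after seeing the data, a fit without the libraries labelled met-2.

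Members and gene lists were chosen with earlier results of these data known. Members were named by rule: per family and comparison the 4 highest and 2 lowest called, those most abundant in N2, those called against the majority, and extremes of direct comparisons. Others named for counts or neighbourhood were chosen after their values were seen.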

Additional observations from a re-analysis of the deposited data

Results flagged for a closer look

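The change in the double mutant differed from the sum of the changes in the libraries labelled met-2 and in set-25 in 36 of the 39 named members, by edgeR's interaction term at adjusted p under 0.05. Of these, 34 were negative and 2 positive, and over all tested genes 36.2% were negative and 27.7% positive. All values are on the log2 scale.

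Among the cut genes the interaction was -11.66 in cut-3, -9.81 in cut-2, -6.45 in cut-6, -4.33 in cut-5 and, positive, 4.96 in cut-1. Among the cuticlin-like genes it was -6.20 in cutl-17, -6.02 in cutl-18, -5.71 in cutl-22, -5.32 in cutl-15, -2.03 in cutl-10, -1.69 in cutl-9, -1.24 in cutl-2 and -0.72 in cutl-25. In the warthog genes it was -8.16 in wrt-1, -5.90 in wrt-3, -5.50 in wrt-4, -4.74 in wrt-2, -4.15 in wrt-6 and -0.85 in wrt-10, and it was -3.27 in hog-1 and -4.29 in qua-1.

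In the groundhog genes the value was -6.43 in grd-1, -5.88 in grd-16, -5.51 in grd-13, -3.49 in grd-5, -3.13 in grd-6 and, positive, 1.89 in grd-7. In the groundhog-like genes it was -8.89 in grl-7, -8.64 in grl-4, -7.88 in grl-15, -7.24 in grl-16, -4.34 in grl-21 and -2.03 in grl-24. With 3 counts or fewer in N2, the fitted values of -11.47 in grl-5, -10.27 in grd-14 and -6.88 in grd-2 depend on the prior count. The interaction uses the libraries labelled met-2, whose met-2 RNA goes against the label, and the 4 groups differ in maternal and muscle transcripts. It also coincides with the split in library totals between N2 and the double mutant and the other groups. Apart from a run with libraries thinned to equal depth, the part of these was not tested.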

How the results depend on the processing

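No paired analysis was possible because table columns are lettered while sample titles are numbered, and no source links them. Over 117 changes of named members against N2, 109 kept their direction in every alternative run, and 10 values turned sign, each in a change that was not called and with 1 library left out. Without single libraries those changes ranged from -0.14 to 0.20 for cutl-2, -1.11 to 0.10 for grd-13, -0.10 to 0.26 for grd-7, -0.68 to 0.042 for grl-4 and -0.083 to 0.19 for wrt-10 in the double mutant, and from -0.075 to 0.42 for cutl-25, -0.069 to 1.0 for grd-6 and -0.33 to 1.2 for grl-21 in set-25. Of 2149 values, 96 lost the call and 27 gained it.

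With single libraries left out, members called higher against N2 ranged from 62 to 68 (met-2), 39 to 53 (set-25) and 10 to 32 (double mutant), and those lower from 1 to 2, 1 to 2 and 0 to 4. The double mutant against met-2 had 1 to 2 higher and 53 to 68 lower, against set-25 2 to 4 higher and 5 to 34 lower. Met-2 against set-25 had 0 to 57 higher and 0 to 1 lower, and the interaction 1 to 2 positive and 61 to 65 negative.

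Small counts moved with the setting. Lower in met-2 were 1 with library totals, without the filter, with DESeq2 and with the compared libraries alone, and 0 when thinned. Lower in set-25 were 1 with totals and with the compared libraries, and 0 when thinned. Lower in the double mutant were 0 without the filter, when thinned and without the libraries labelled met-2, 2 with DESeq2 and 4 with the compared libraries. The double mutant against met-2 had 2 higher without the filter and 0 when thinned. Against set-25, 1 was higher with totals, and 31, 19 and 5 were lower with totals, DESeq2 and the compared libraries. Met-2 against set-25 had 0 higher with the compared libraries and 1 lower with DESeq2. The interaction was positive in 1 with totals and in 1 when thinned. Apart from the effect of fewer libraries or genes, the cause was not tested.

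Library totals in place of TMM moved the median of all genes to 0.32 in met-2, 0.37 in set-25 and 0.00 in the double mutant, and that of the members to 3.20, 1.65 and 0.83. Over all genes, rises and falls were then 6250 and 2438 in met-2, 5780 and 1761 in set-25 and 1223 and 295 in the double mutant. Depth limits the scarce members, of which 18 were not tested.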
